A study of Mus musculus with 8 samples.

Results

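The genes of the motile cilium were followed in the thyroid of mice exposed to 99mTcO4-, the pertechnetate anion of technetium-99m that the thyroid concentrates as it does iodide. The members were the probes whose gene name on the array belongs to the Dnahc, Dnaic, Dnali, Tekt or Rsph families followed by a digit, or is Foxj1, Rfx2, Rfx3, Spag6, Spag16, Spag17, Hydin, Tppp3, Ccdc39, Ccdc40, Lrrc6 or Cetn4. This gave 72 of the 55681 probes on the array, for 41 genes. The rule reads gene names alone, but it was written with earlier results of these data known, so the shares of called members are a description. The samples were whole thyroids of female Balb/c mice aged 8 weeks. In the exposed group 4 thyroids had absorbed 30 Gy from 99mTcO4- given by intraperitoneal injection, and RNA was taken 24 h later (S539, S588, S589 and S590). The other 4 thyroids were controls (numbered 1 to 4), which the study describes as untreated in one place and as given saline in another. Each thyroid was read on 1 array, so the groups hold 4 biological replicates each.

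A motile cilium is built on an axoneme of outer microtubule doublets around a central pair. Dynein arms on the doublets slide neighbouring doublets against each other, and radial spokes, nexin links and the central pair set the beat. The programme is switched on by Foxj1 together with RFX factors in multiciliated cells such as those of the airways, oviduct and ependyma. The follicular cell of the thyroid carries a primary cilium, which is built by intraflagellar transport and lacks most of these parts.

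Between 60.5% and 77.3% of the spots on an array were well above background, with the lowest share on control 4, and no spot was saturated. All 8 arrays shared 1 slide and 1 scan, with the exposed samples on one row of positions and the controls on the other, so that position and group cannot be told apart. Thyroglobulin (Tg) marked every array as thyroid, with a log2 signal of 18.70 to 19.07, and 9 of 10 thyrocyte markers were well above background on all arrays. Values below are log2 signals after quantile normalisation, and differences are exposed minus control on the log2 scale. Adjusted p values are those of limma over all 55681 probes, with a threshold of 0.05. A probe is called measured here when it was well above background on all 4 arrays of at least 1 group.

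Of the 72 member probes 2 passed the threshold, both higher in the exposed thyroids, namely those of Foxj1 and Dnali1. This is 2.78% of the members, against 0.781% of all probes on the array (435). Of all probes 0.587% passed with the exposed thyroids higher (327) and 0.194% with them lower (108). An unadjusted p under 0.05 was reached by 14 members (19.4%), 7 in each direction, and by 12.2% of all probes. The median difference over the 72 members was -0.02 (0.0077 over all probes). The exposed arrays lay above all controls for 3 members (4.17%, against 4.74% of all probes), and below all controls for 4 members (5.56%, against 4.37% of all probes). The members without a call ran from -1.83 to 1.38. Of the 41 genes, 33 had a measured probe. The 8 without one were Dnahc1, Dnahc3, Dnahc5, Dnahc10, Rsph10b2, Spag16, Spag17 and Tekt3.

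**Figure D1:**
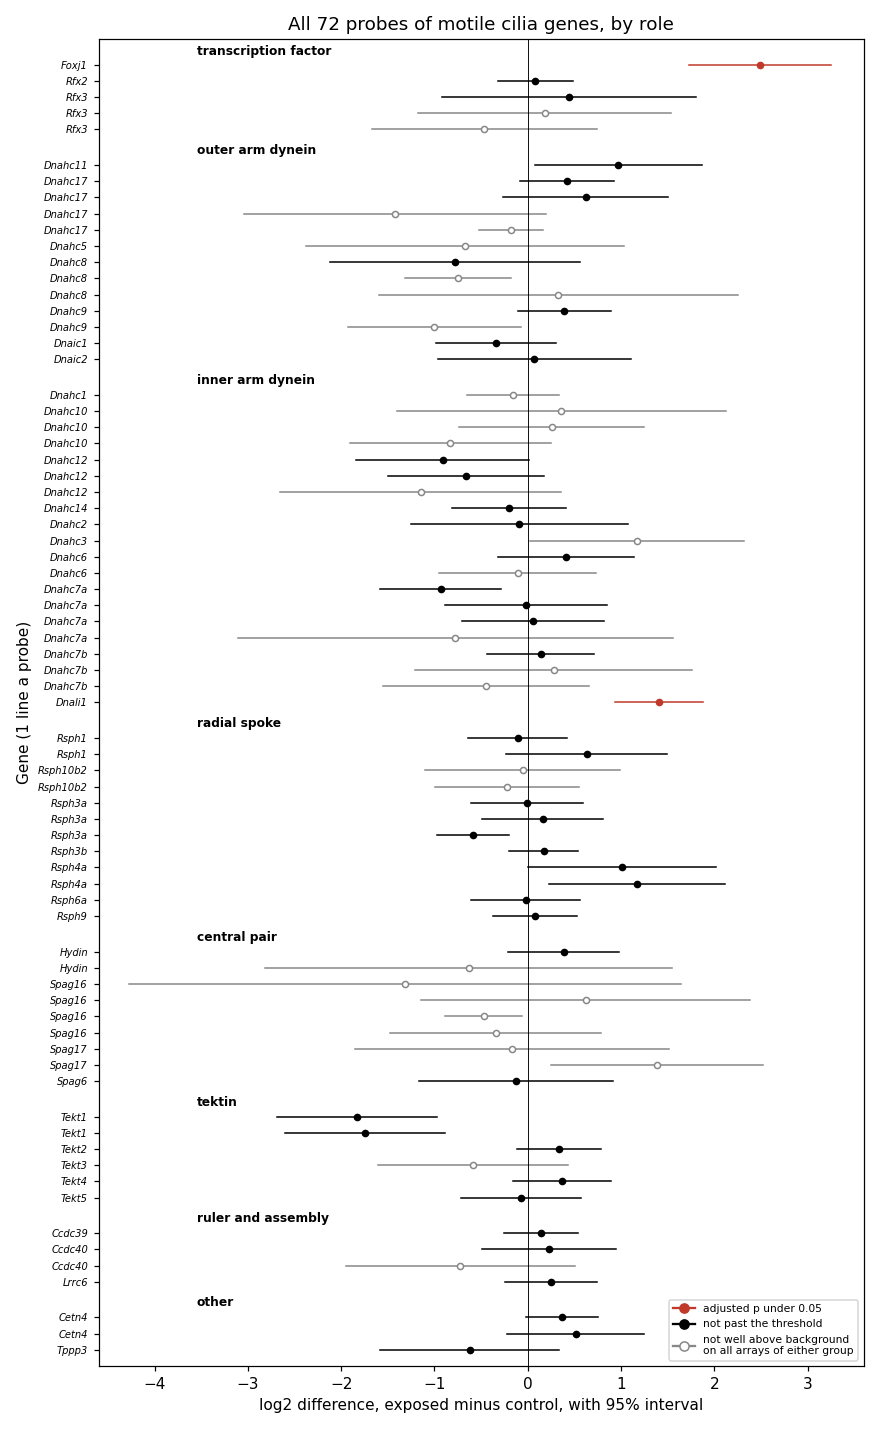
Difference between exposed and control thyroids for each of the 72 probes (horizontal axis, log2 scale, with the 95% interval of the limma fit), grouped by the role of the gene. Filled points are measured probes, and red points passed the adjusted p threshold. Foxj1 at 2.49 stands to the right of the other members. Dnali1 at 1.40 comes next, close to a probe of Spag17 that was not measured (1.38). The 2 probes of Tekt1, at -1.83 and -1.74, stand to the left.

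Among the transcription factors, Foxj1, the forkhead factor that switches on the genes of motile cilia, was higher in every exposed thyroid. Its signal was 7.04, 7.53, 7.50 and 6.29 in controls 1 to 4, and 10.10, 9.08, 9.60 and 9.54 in S539, S588, S589 and S590. The groups did not overlap, and the lowest exposed value was above the highest control by more than either group's SD. Foxj1 rose by 2.49 ± 0.33 (SE, n = 4 against 4), a 5.62-fold difference, with an adjusted p of 0.021. Its exact two-sided permutation p was 0.0286, the smallest that 4 against 4 arrays can give and the value of any groups without overlap. Its single probe lies at chr11:116192214-116192273 on the minus strand (mm9, as the array files give it; exon annotation of that build was not used here). In RNA of a whole organ, fewer cells of a type and less RNA per cell cannot be told apart, and the same holds for more of either. The direction held under all 17 alternative settings (1.93 to 2.71). The call was lost with the methods' t-test (adjusted p = 0.062) and without control 2, S539, S589 or S590 (adjusted p between 0.057 and 0.082).

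The RFX factors of the rule, which bind the X-box of ciliary promoters, gave no call. Rfx2 read 7.14, 6.97, 7.54 and 6.98 in the controls, and 7.39, 7.02, 7.32 and 7.21 in S539, S588, S589 and S590. The groups overlapped, and the difference was 0.08 with a 95% interval of -0.32 to 0.48, so that a change of the size seen for Foxj1 lay outside the interval. Rfx3, the other factor, had 3 probes with differences of 0.44, 0.18 and -0.46, none of them past the threshold. By its brightest probe Rfx3 read 7.71, 6.66, 6.57 and 6.70 in the controls, and 5.92, 8.86, 7.15 and 7.48 in the exposed thyroids. Control 1 stood apart from the other controls, the exposed values spread over both sides of the controls, and the interval of -0.91 to 1.80 leaves the size of any difference wide.

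Of the dynein genes, Dnali1 alone passed the threshold. It encodes a light intermediate chain of the inner arms. Its signal was 7.39, 7.83, 7.62 and 7.00 in controls 1 to 4, and 8.72, 9.08, 8.73 and 8.93 in S539, S588, S589 and S590. The exposed thyroids lay close together (SD 0.17) and all above the controls (SD 0.36). Dnali1 rose by 1.40 ± 0.20 (SE, n = 4 against 4), or 2.65-fold, with an adjusted p of 0.029. Its exact permutation p was 0.0286, again the value of any groups without overlap. The direction held under all 17 alternatives (1.10 to 1.51). The call was lost whichever of the 8 arrays was left out (adjusted p between 0.052 and 0.098) and with the methods' t-test (adjusted p = 0.060).

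The remaining inner arm probes, 19 of 20, were without a call. The measured ones ran from -0.93 to 0.42. Dnahc7b, a heavy chain and the brightest probe of this group, read 8.37, 9.30, 9.22 and 8.81 in the controls, and 9.02, 9.31, 9.23 and 8.70 in S539, S588, S589 and S590. The groups overlapped (difference 0.14, 95% interval -0.43 to 0.71, adjusted p = 0.84), and control 1 was the lowest of the 8. Dnahc7a, a close relative of Dnahc7b, is given for its brightest probe and was chosen after its values were seen. It read 5.64, 6.34, 6.80 and 6.81 in the controls, and 5.68, 5.30, 5.63 and 5.24 in the exposed thyroids. Only control 1 lay within the exposed range, and the difference was -0.93 ± 0.28 (SE, n = 4 against 4; adjusted p = 0.24), while 2 other measured probes of the gene gave -0.02 and 0.06. Dnahc12, another heavy chain, is given for its 3 probes and was chosen after its values were seen. Its differences were -0.91, -0.66 and -1.15, none past the threshold (adjusted p between 0.42 and 0.51), and on the third probe no exposed array was well above background.

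The outer arm genes, which encode the heavy chains Dnahc5, Dnahc8, Dnahc9, Dnahc11 and Dnahc17 and the intermediate chains Dnaic1 and Dnaic2, had 13 probes and no call. Dnaic1, with the brightest probe, read 9.82, 10.17, 9.13 and 10.26 in the controls, and 9.87, 9.26, 9.28 and 9.60 in the exposed thyroids. The groups overlapped, with a difference of -0.34 (95% interval -0.99 to 0.31). The highest difference among measured outer arm probes was that of Dnahc11, a heavy chain whose loss causes ciliary dyskinesia, at 0.97 ± 0.39 (SE, n = 4 against 4; adjusted p = 0.38). Dnahc11 was chosen after its values were seen, and control 3 at 7.60 exceeded S590 at 7.43. Dnahc8, likewise chosen after its values were seen, read 10.96 in control 1 and 8.14 to 9.34 in the other controls, against 8.22 to 8.77 in the exposed thyroids. By this probe, its brightest, the difference was -0.78 (adjusted p = 0.61). The other probes of Dnahc8, neither of them measured, gave -0.75 and 0.33 without a call. Dnahc9 gave 0.39 and Dnaic2 gave 0.07, both without a call.

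Radial spoke genes, whose products link the outer doublets to the central pair, had 12 probes and no call. Rsph3b, with the brightest probe, read 12.78, 13.03, 13.16 and 13.13 in the controls, and 13.06, 13.33, 13.41 and 12.97 in S539, S588, S589 and S590. The groups overlapped within a narrow range, and the difference was 0.17 (95% interval -0.20 to 0.54). Rsph4a, a component of the spoke head, is given for its 2 probes, both chosen after their values were seen. One of them read 5.76, 6.09, 5.49 and 5.11 in the controls, and 6.15, 7.76, 6.12 and 7.10 in the exposed thyroids. These groups did not overlap, although control 2 and S589 differed by only a little. The difference was 1.17 ± 0.41 (SE, n = 4 against 4) with an adjusted p of 0.31. The second probe gave 1.01 ± 0.44 (adjusted p = 0.41), with S588 well above the other exposed thyroids on both. Of the remaining spoke genes, Rsph9 of the spoke head gave 0.08, Rsph6a gave -0.02, and the probes of Rsph1 gave -0.11 and 0.63, all without a call.

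Central pair genes were at or near background on most probes: 2 of 9 were measured, 1 for Hydin and 1 for Spag6, and neither passed the threshold. Hydin, a projection of the central pair whose loss gives hydrocephalus, read 6.14, 6.95, 7.20 and 6.95 in the controls, and 7.25, 7.18, 7.49 and 6.86 in the exposed thyroids. The groups overlapped, and the difference was 0.39 (95% interval -0.21 to 0.98).

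Tekt1 showed the widest difference in the opposite direction. Tektins are filament proteins of the doublet microtubules. Its brighter probe read 11.52, 13.40, 12.73 and 12.69 in controls 1 to 4, and 10.82, 10.65, 10.53 and 11.01 in S539, S588, S589 and S590. All exposed thyroids were below all controls, and the controls spread more widely (SD 0.78) than the exposed thyroids (SD 0.21). The difference was -1.83 ± 0.37 (SE, n = 4 against 4), 3.55-fold lower. Its adjusted p of 0.090 did not pass the threshold. The exact permutation p of 0.0286 only restates that the groups did not overlap. The second probe, which lies beside the first on chromosome 11, gave -1.74 ± 0.37 (adjusted p = 0.10) with the groups again apart. The call depended on the processing: the brighter probe passed under 7 of the 17 alternatives, the deposited values included (-1.71, adjusted p = 0.037), and its difference was -2.19 (adjusted p = 0.019) without control 1. The other tektins were Tekt2, Tekt3, Tekt4 and Tekt5, with 1 probe each and no call (0.33, -0.59, 0.37 and -0.07), of which the Tekt3 probe was not measured.

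**Figure D2:**
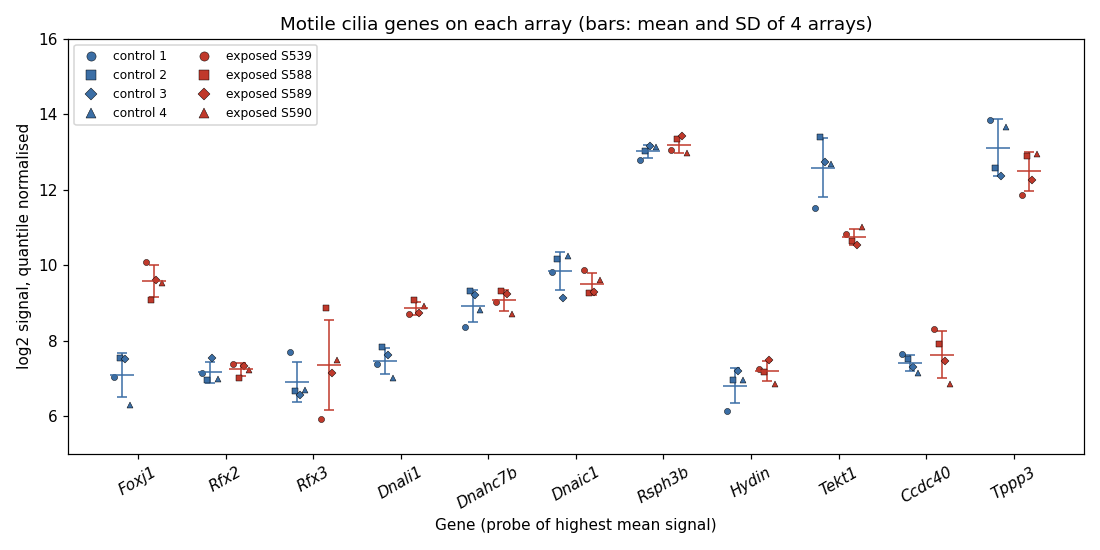
Quantile-normalised log2 signal (vertical axis) of the 11 member genes named by rule, controls in blue and exposed thyroids in red, with the mean and SD of the 4 arrays. The exposed arrays of Foxj1 (9.08 to 10.10) and Dnali1 (8.72 to 9.08) lie above all controls, those of Tekt1 (10.53 to 11.01) below, and in the other 8 genes plotted the groups overlap.

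The ruler and assembly genes had 4 probes and no call, with measured differences of 0.14 for Ccdc39 to 0.25 for Lrrc6, a factor that assembles dynein arms in the cytoplasm. Ccdc40, which with Ccdc39 sets the spacing of arms and spokes along the doublet, read 7.63, 7.52, 7.31 and 7.15 in the controls, and 8.32, 7.90, 7.46 and 6.85 in the exposed thyroids. The exposed values spanned the range of the controls (difference 0.23, 95% interval -0.49 to 0.95). Tppp3, a tubulin polymerisation-promoting protein that is also expressed outside ciliated cells, read 13.86, 12.58, 12.35 and 13.65 in the controls, and 11.86, 12.90, 12.26 and 12.94 in the exposed thyroids. The groups overlapped (difference -0.62, 95% interval -1.58 to 0.34). Cetn4, a centrin, had 2 probes with differences of 0.37 and 0.52, neither past the threshold.

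Over the 33 genes with a measured probe, control 1 was the lowest control in 14 and control 4 in 11, and S590 was the lowest exposed thyroid in 13 and S539 the highest in 12. Probes of 1 gene often disagreed. Of the 19 genes with several probes, 14 had probes with differences of both signs. Rsph3a was one of these, with all 3 probes measured: 2 gave 0.16 and -0.0034, while the third gave -0.59 with the groups apart (adjusted p = 0.21). For the 43 measured probes the 95% interval of a difference reached, in the median, 0.65 to either side. This interval is not adjusted for the number of probes, so it is not the limit for a call. Larger differences were also without a call, such as that of Tekt1 (-1.83).

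Promoter sequence is shown because RFX factors act through the X-box, a motif described in the promoters of ciliary genes. RefSeq windows of 300 bases (GRCm38.p6, from 250 bases before the transcription start to 50 after it) were found for 34 of the 41 genes. The genes without a window were Dnahc3, Foxj1, Lrrc6, Rsph1, Rsph10b2, Rsph4a and Tppp3. One strict form of the motif was searched, GTTNCC followed after 0 to 3 bases by GGNAAC, which reads alike on both strands. It was in 0 of 37 member windows and in 0.804% of all 32851 windows. Looser forms of the X-box were not searched, so this count does not show that a window lacks an X-box. GTTGCC, 1 spelling of the GTTNCC arm, was searched on both strands, and some matches of the strict form contain it. It was in a window of 13 of the 34 genes (38.2%), and of 14.1% of the 27025 genes with a window. These 13 were Dnahc10, Dnahc7a, Dnahc7b, Dnaic2, Hydin, Rfx2, Rfx3, Rsph3b, Spag16, Spag6, Tekt1, Tekt2 and Tekt4. Dnali1, the only called gene with a window, was not among them. Its window does hold GTTTCC and GTTACC, other spellings of GTTNCC, which were neither counted nor marked. The window of Dnali1, which rose, is shown first. It is followed by windows of Tekt1, Tekt2 and Spag16, which hold GTTGCC or its reverse complement at 2 places each. Capitals mark these places. In the windows shown they begin 35 and 15 bases before the start in Tekt1, 138 and 64 in Tekt2, and 111 and 103 in Spag16. Tekt1 and Tekt2 have further windows from other starts. In one of Tekt2 the same places lie 96 and 22 bases before the start, while another of Tekt2 and the other of Tekt1 have no match.
Dnali1, chr4:125065608-125065907, minus strand: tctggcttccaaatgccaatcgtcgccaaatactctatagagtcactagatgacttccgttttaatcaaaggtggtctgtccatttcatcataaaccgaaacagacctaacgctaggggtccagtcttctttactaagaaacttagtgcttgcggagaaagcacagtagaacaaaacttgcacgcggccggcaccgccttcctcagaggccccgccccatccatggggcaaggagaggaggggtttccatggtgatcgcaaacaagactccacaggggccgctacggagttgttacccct
Tekt1, chr11:72361833-72362132, minus strand: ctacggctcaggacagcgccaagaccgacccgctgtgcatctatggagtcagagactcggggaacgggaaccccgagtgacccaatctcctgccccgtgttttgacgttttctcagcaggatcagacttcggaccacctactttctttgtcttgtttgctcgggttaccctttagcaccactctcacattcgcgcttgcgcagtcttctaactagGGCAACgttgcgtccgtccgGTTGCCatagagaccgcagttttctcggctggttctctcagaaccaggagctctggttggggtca
Tekt2, chr4:126325597-126325896, minus strand: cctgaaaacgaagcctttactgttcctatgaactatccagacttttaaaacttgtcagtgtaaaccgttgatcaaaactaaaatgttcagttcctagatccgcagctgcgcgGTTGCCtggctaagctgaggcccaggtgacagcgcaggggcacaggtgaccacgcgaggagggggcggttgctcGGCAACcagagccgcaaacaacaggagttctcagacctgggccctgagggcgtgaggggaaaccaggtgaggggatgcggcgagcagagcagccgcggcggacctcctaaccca
Spag16, chr1:69826720-69827019, plus strand: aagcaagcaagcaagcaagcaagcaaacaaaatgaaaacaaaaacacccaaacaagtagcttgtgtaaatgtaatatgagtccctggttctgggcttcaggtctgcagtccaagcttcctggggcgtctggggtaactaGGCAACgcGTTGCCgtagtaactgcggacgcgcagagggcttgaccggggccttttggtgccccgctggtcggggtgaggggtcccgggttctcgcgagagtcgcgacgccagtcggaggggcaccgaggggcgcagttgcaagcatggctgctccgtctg
A match of these letters is a description of the window, and a window without a match says only that the letters are not there.

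Of the cilium genes outside the rule, 101 were found on the array in lists of other regulators, dynein arm and docking genes, assembly factors, nexin link, spoke and central pair genes, other axoneme genes and intraflagellar transport genes. By their brightest probe 2 of the 101 passed the threshold, both higher in the exposed thyroids (1.98%, against 0.781% of all probes). The exposed arrays lay above all controls for 8 genes (7.92%, against 4.74% of all probes) and below for none (4.37%), and the median difference was 0.14. An unadjusted p under 0.05 was reached by 13 genes with a higher and 2 with a lower mean in the exposed thyroids (12.9% and 1.98%, against 6.29% and 5.87% of all probes). These shares are not of like sets: a measured probe stood for 83 of the 101 genes, against 64.9% of all probes. Of the 36135 measured probes on the array, 2339 had the exposed arrays above all controls and 1639 below. An unadjusted p under 0.05 with exposed higher was reached by 2802 of them, and 308 were called higher and 83 lower.

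The gene 1700007K13Rik, also named Rbest47 and Pierce1, a p53-responsive gene whose product belongs to motile cilia, showed the wider difference of the 2. It read 4.17, 6.17, 6.17 and 5.57 in the controls, and 11.35, 10.79, 10.97 and 11.04 in S539, S588, S589 and S590. Only 2 of the 4 controls were well above background, while all exposed arrays were. The difference was 5.52 ± 0.44 (SE, n = 4 against 4; adjusted p = 0.0032), and it passed the threshold under all 17 alternatives. Its control level lies near the background, so the size moved with the background correction, to 4.18 with normexp.

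Nme5, a nucleoside diphosphate kinase homologue of the radial spoke, read 10.42, 11.07, 11.04 and 10.67 in the controls, and 12.11, 11.74, 11.92 and 11.95 in the exposed thyroids. The groups did not overlap. The difference was 1.13 ± 0.19 (SE, n = 4 against 4; adjusted p = 0.044), and the call was made under 8 of the 17 alternatives. Among the lists, that of nexin link, spoke and central pair genes held Nme5 and had a median of 0.38 over 15 genes, with 1 call. Intraflagellar transport genes, which primary cilia use as well, had a median of 0.04 over 24 genes and no call, although Ift27, at 0.69 (adjusted p = 0.13), passed under 4 of the alternatives. Assembly factors (8 genes), other dynein arm and docking genes (10 genes) and other regulators (15 genes) had no call either, with medians of 0.21, 0.32 and 0.13. The other axoneme genes (29) had 1 call, that of 1700007K13Rik, and a median of -0.0016.

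**Figure D3:**
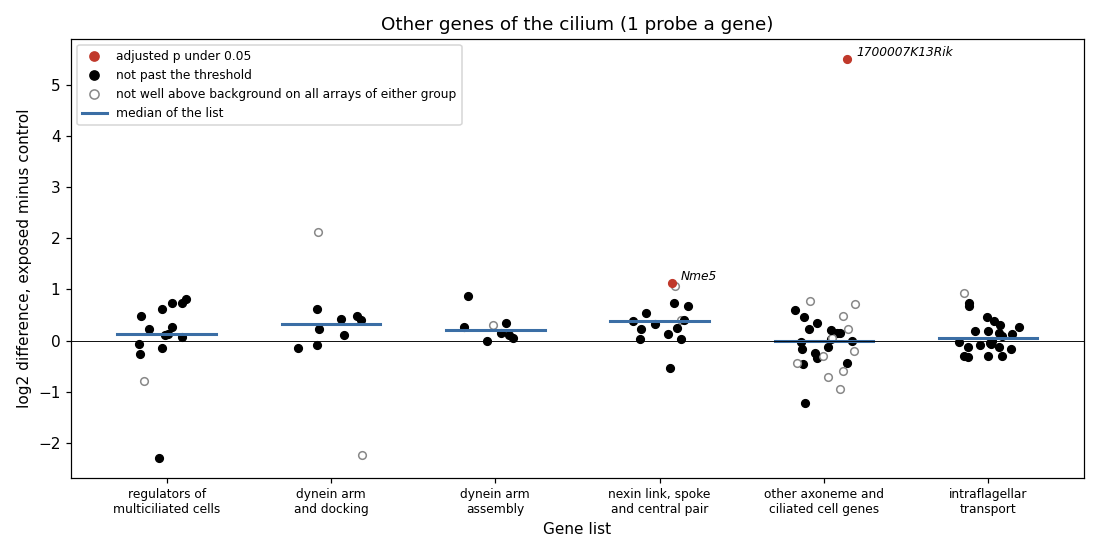
Difference between exposed and control thyroids (vertical axis, log2 scale) for the 101 cilium genes outside the rule, 1 probe a gene, by list. Red points passed the adjusted p threshold and blue bars are list medians. 1700007K13Rik at 5.52 and Nme5 at 1.13 passed, and the medians lie between -0.0016 and 0.38.

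Markers of other cells were read on the same arrays, because trachea, with its own ciliated epithelium, and neck muscle adjoin the thyroid. All 9 airway secretory markers found were well above background on all 8 arrays, and none passed the threshold. The log2 of their summed signal was 14.87 to 16.94 in the controls and 14.51 to 16.21 in the exposed thyroids. Scgb1a1, the club cell secretoglobin, read 9.88, 11.84, 9.73 and 9.69 in the controls, and 12.07, 12.30, 7.10 and 6.38 in S539, S588, S589 and S590. Foxj1 was higher than in any control both in S539 and S588, where Scgb1a1 was high, and in S589 and S590, where Scgb1a1 was below all controls. The markers did not all run alike: 5 of the 9 were below all controls in both S589 and S590, while Bpifa1 (14.21 and 14.08) and Reg3g (7.97 and 8.14) lay within the range of the controls there. The part of airway epithelium in the Foxj1 values was not tested. All 7 skeletal muscle markers were well above background on every array, with a log2 summed signal of 19.59 to 20.71 in the controls and 18.61 to 20.34 in the exposed thyroids. Muscle actin (Acta1) was highest in controls 1 and 4 (18.29 and 18.66), the arrays with the highest Tppp3, and lowest in S539 and S589 (16.22 and 16.58), those with the lowest Tppp3. The muscle markers did not all run alike. Myh4 was lowest in control 3 (16.61), and Myh1 was higher in control 3 (17.34) than in control 4 (17.23). The part of muscle in the Tppp3 values was not tested. Thymocyte markers, 2 of 7 well above background on all arrays, had their highest sums in controls 1 and 2 (log2 sum up to 15.09 in the controls and 12.32 in the exposed thyroids). Of 6 testis germ cell genes, Ddx4 and Odf1 were well above background on no array. No gene of the testis, thymocyte, basal epithelium, cartilage, C cell, parathyroid or adipocyte lists passed the threshold.

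**Figure D4:**
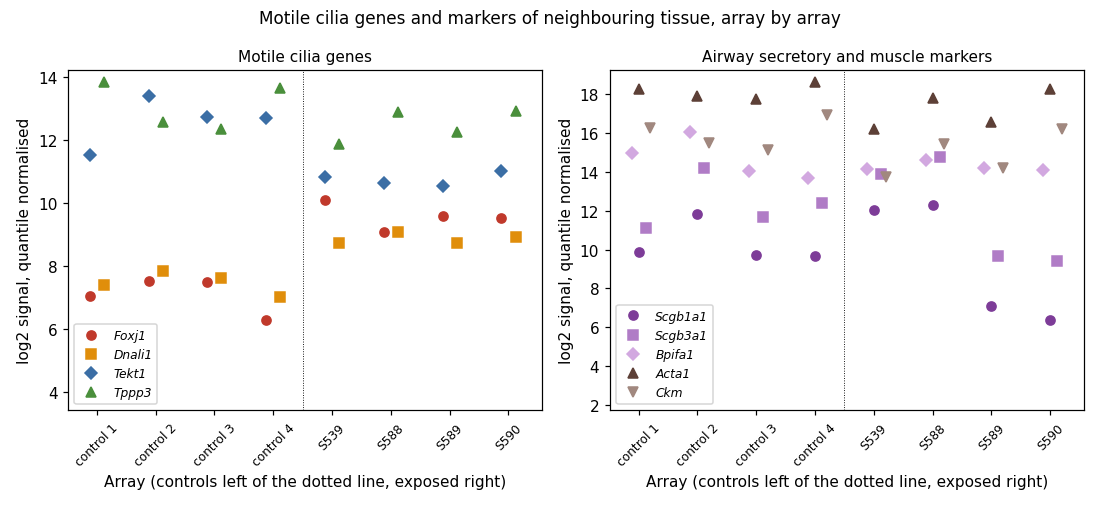
Quantile-normalised log2 signal (vertical axes) on each of the 8 arrays (horizontal axes) for Foxj1, Dnali1, Tekt1 and Tppp3 on the left, and for airway secretory (Scgb1a1, Scgb3a1, Bpifa1) and skeletal muscle (Acta1, Ckm) markers on the right. Foxj1 is at 9.08 or above on every exposed array. Over the same arrays Scgb1a1 ranges from 6.38 to 12.30 and Bpifa1 from 14.08 to 14.64.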

How the data were processed

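Thyroid RNA of 4 control and 4 exposed mice was labelled with Cy3 and hybridised to one-colour Agilent mouse arrays. The authors deposited the scanner output of Feature Extraction 10.7.3.1, in which each spot has a processed (background-subtracted), mean and median intensity, and a table of log2 values normalised by quantiles in limma. Here the log2 of the processed intensity of 59305 non-control spots was quantile-normalised, spots of a probe were averaged, and exposed and control arrays were compared with lmFit and eBayes (R 4.3.3, limma 3.58.1), with Benjamini-Hochberg adjustment over 55681 probes and a threshold of 0.05. Replicates share no numbers between the groups, so no block was fitted.

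A gene stood by its probe of highest mean signal. Values array by array are given for genes with a call, for Foxj1, Rfx2 and Rfx3, for the brightest gene of each role and for measured genes whose groups were apart. The exact permutation test used the 70 assignments of the arrays. The members and lists were chosen with earlier results of these data known. Gene names are those of the array design, older symbols were matched through RefSeq (GRCm38.p6, names and promoter windows), and probe positions are in mm9. The fit was tested on simulated data. Alternatives were scaling to the 75th percentile, normexp with an offset of 50, median signals without background subtraction, the deposited log2 values, a filter on dim probes, an intensity trend in the variance, weights for arrays, removal of outlier spots, the methods' t-test and the loss of each array in turn. The number of arrays limits the precision.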

Additional observations from a re-analysis of the deposited data

Results flagged for a closer look

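In 32 groups of 4 arrays examined for a single array far from the others, 1 was found. The brightest probe of Rfx3 read 7.71 in control 1, while the other controls lay between 6.57 and 6.70, so that the gap to the nearest control took most of the range of the group. Chance gives about 1 such group in 20.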

How the results depend on the processing

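Of 187 alternative values of the 11 member genes named by rule, 184 kept their direction. The exceptions, all without a call, were Dnahc7b with array weights (-0.094) and without control 1 (-0.049), and Rfx3 without S588 (-0.056). With 1 array left out Dnahc7b ran from -0.049 to 0.26 and Rfx3 from -0.056 to 0.92. The 75th percentile scaling moved the median of all probes to 0.16 and that of the members to 0.28.

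The number of member probes past the threshold was 2. It was 3, with Tekt1 added, with normexp, without background subtraction, with the deposited values, without dim probes and with a variance trend. It was 4 with array weights and 0 with the methods' t-test, and between 0 and 4 with 1 array left out. It was 4 without control 1 (Foxj1, Tekt1 and Dnahc12), 1 without control 3 or 4 (Foxj1), 2 without S588 (Foxj1 and Spag17), and 0 without control 2, S539, S589 or S590. The Spag17 probe called there was not a measured one: it was well above background on 1 exposed array and on no control. The number of member genes, 2, became 0 with the methods' t-test and between 0 and 3 with 1 array left out (3 without control 1). It became 3, with Tekt1 added, with normexp, without background subtraction, with the deposited values, without dim probes, with a variance trend and with array weights. It stayed 2 when any probe of a gene counted. The number of listed genes outside the rule, 2, became 3 with normexp, without background subtraction, with the deposited values and with a variance trend, where Ift27 was added, and 1 with the methods' t-test and 1 without any 1 of the 8 arrays, where 1700007K13Rik was the gene called.

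The number of all probes past the threshold, 435, became 856 with normexp, 962 without background subtraction, 955 with the deposited values, 733 without dim probes (36135 probes tested), 744 with a variance trend, 959 with array weights and 289 with the methods' t-test, and lay between 100 and 485 with 1 array left out. The cause was not tested. No paired analysis was possible because the groups share no replicate numbers.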
